A study of Mus musculus with 9 samples.

Results

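Transcripts of 8 neuropeptide precursors that cortical interneurons use were followed in the medial prefrontal cortex of mice: Sst, Cort, Npy, Vip, Cck, Tac1, Penk and Pdyn. They were chosen by symbol, as the rows of the deposited expression table that carry these names, and each of the 8 had 1 row among 35125 genes. All 8 also passed the filter on low values that left 14013 genes for testing. The 9 libraries of polyadenylated RNA fall into 3 groups of 3, namely a running model, mice put through chronic unpredictable stress (the CUS model) and unstressed controls. The series description places running in mice exposed to the stress, while the group's own labels say exercise only. Every library carries the same time labels, 4 week and week 8, and the labels give no strain, sex, age or running regime and do not say whether a library is 1 animal. Tests below thus read only how far libraries of a group spread, part of which may be technical.

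Neuropeptides are cut from larger precursor proteins in dense-core vesicles and act on G protein-coupled receptors of neighbouring cells. In the cortex they also mark inhibitory neuron classes: somatostatin and cortistatin belong to dendrite-targeting cells, vasoactive intestinal peptide (VIP) to cells that inhibit other interneurons, and neuropeptide Y to several classes. Cholecystokinin is made by a class of basket cells and by many excitatory neurons as well, and the precursors Tac1, Penk and Pdyn are abundant in the neighbouring striatum. Their transcription is known to respond to neuronal activity, in part through the cyclic AMP response element.

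Levels are given in FPKM, fragments scaled to transcript length and to the mapped fragments of the library, so they can be set beside each other between genes. Averaged over the 9 libraries, Cck stood at 881 ± 108 FPKM, Sst at 535 ± 73.8, Npy at 192 ± 23.7 and Vip at 41.0 ± 6.37 (SD, n = 9). Penk stood at 34.7 ± 6.43 FPKM, Tac1 at 17.6 ± 2.24, Cort at 15.1 ± 1.91 and Pdyn at 12.4 ± 1.85. The ranges of Cck, Sst, Npy and Vip did not touch, and Cck and Sst ranked 18 and 57 among the 14013 genes by mean level. Lower in the order the ranges overlapped. Vip exceeded Penk in 8 of 9 libraries, the exception being control replicate 2, and Tac1 exceeded Cort in 9 of 9. Cort exceeded Pdyn in 0 of 3 running, 3 of 3 CUS and 3 of 3 control libraries.

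**Figure D1:**
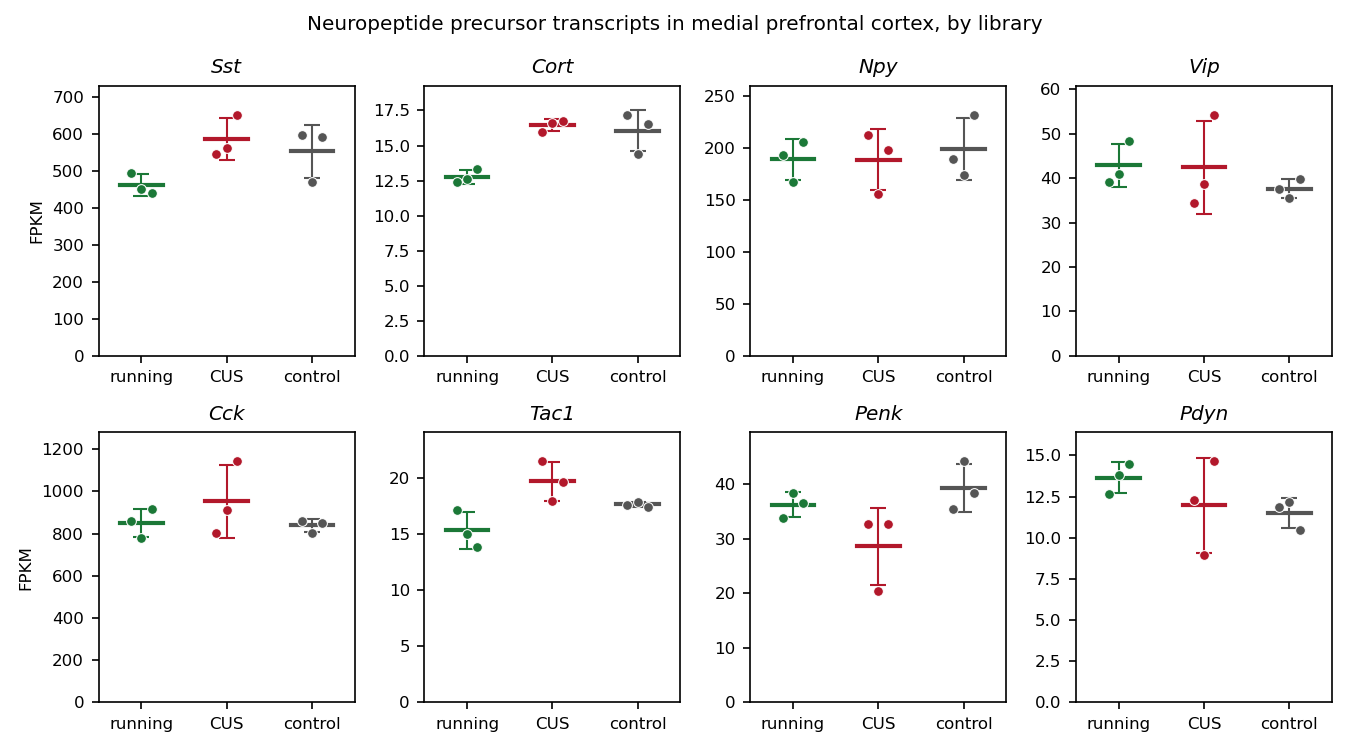
FPKM of each precursor (vertical axis, from 0) in the running, CUS and control groups; points are libraries, with replicates 1 to 3 from left to right, thick bars are means and thin bars the SD (n = 3). The running points of Sst, Cort and Tac1 lie below all CUS points, and the CUS points of Penk lie below all running and control points.

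Summed FPKM per library was 370441 to 378824 in running, 386366 to 423257 in CUS and 377545 to 390537 in control libraries. Every running total was thus below every CUS total. The sum was highest in CUS replicate 3, and the read depth behind it is unknown. That library stood at 28.4 on the first principal component and the other 8 between -10.8 and 8.09. General interneuron genes were present. Gad1, which makes GABA, averaged 86.1 ± 2.89 FPKM in running, 83.6 ± 7.31 in CUS and 88.1 ± 3.73 in control libraries (SD, n = 3 each). In bulk tissue, fewer cells of a type and less RNA per cell cannot be told apart.

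Sst and Cort are related genes. Both lie on the minus strand of GRCm38.p6 with 2 exons, Sst at chr16:23889573-23891342 and Cort at chr4:149125034-149126763, and both precursors end in a peptide of 14 residues that binds somatostatin receptors. The last 42 coding bases before the stop codon, which encode that peptide, are shown from GENCODE M21 because they are the stretch the genes have in common. The sequences align 1 codon apart, and capitals mark bases that differ or have no partner.
Sst: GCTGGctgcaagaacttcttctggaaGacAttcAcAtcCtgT
Cort: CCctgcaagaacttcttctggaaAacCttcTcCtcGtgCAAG
Of the 39 aligned bases, 31 are identical (79.5%). The longest run shared by the whole transcripts is 21 bases, and 0 stretches of 50 bases in Sst or Cort occur in the transcripts of any other gene. The same held for Npy, Vip, Cck, Tac1 and Pdyn. Penk shares 7.71% of its stretches of 50 bases with A830012C17Rik, a non-coding gene that overlaps it on the opposite strand and was listed at 0 FPKM in each of the 9 libraries. The protocol names no strand marking, so reads of such overlapping genes cannot be told apart. On GRCm38.p6, Penk lies at chr4:4133536-4138815 (minus strand), Npy at chr6:49822710-49829507 (plus), Vip at chr10:5639193-5647617 (plus) and Cck at chr9:121489824-121495694 (minus). Tac1 lies at chr6:7555061-7562978 (plus) and Pdyn at chr2:129686549-129699938 (minus).

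In running compared with CUS libraries, the transcripts of somatostatin, cortistatin and the tachykinin precursor were lower by about the same proportion, and that of proenkephalin was higher. None of the 8 passed the threshold, an adjusted p under 0.05 over all 14013 genes in limma, and 4 of 8 had an unadjusted p under 0.05, as did 23.5% of all genes. That threshold called 1 gene in all (0.00714% of genes). The 3 values per group did not overlap for 3 members lower in running, where 15.9% of all genes were lower without overlap, and for 1 member that was higher, where 8.99% of genes were.

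Sst had 495, 451 and 441 FPKM in running libraries, against 547, 563 and 653 in CUS libraries. Every running library was below every CUS library, and the log2 difference on the log2(FPKM + 0.5) scale was -0.34 (95% interval -0.57 to -0.11, limma adjusted p = 0.105), a ratio of 0.789. It was -0.15 with quantile normalization, which sets the value distributions of the libraries equal. With equal library totals the Sst difference was -0.24 (limma adjusted p = 0.138). Leaving out 1 library at a time gave -0.39 to -0.26 for Sst, with limma adjusted p of 0.0719 to 0.312. Cort had 12.4, 12.6 and 13.4 FPKM in running libraries, against 16.0, 16.6 and 16.8 in CUS libraries. The spread within both groups was small, with SDs of 0.501 FPKM in running and 0.433 in CUS libraries (n = 3 each). The log2 difference of Cort was -0.35 (95% interval -0.51 to -0.19, limma adjusted p = 0.0776). With equal library totals it was -0.25 (limma adjusted p = 0.107).

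Tac1 encodes the precursor of substance P and neurokinin A. It had 17.2, 15.0 and 13.9 FPKM in running libraries, against 21.5, 18.0 and 19.7 in CUS libraries. The groups were separated by less than 1 FPKM between running replicate 1 and CUS replicate 2, and the log2 difference was -0.35 (95% interval -0.54 to -0.17, limma adjusted p = 0.0810). With equal library totals it was -0.25 (limma adjusted p = 0.125). Without CUS replicate 2, Cort and Tac1 passed the threshold at limma adjusted p of 0.0338 and 0.0282, with log2 differences of -0.34 and -0.41, and 1518 genes were then called in all. With array quality weights they passed at 0.0196 and 0.0133, and 2178 genes were called. Neither passed when any other single library was left out. Without running replicate 3 the limma adjusted p was 0.286 for both, with log2 differences of -0.38 for Cort and -0.28 for Tac1. In that setting 0 genes were called.

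Penk encodes proenkephalin, the source of the enkephalins. It had 33.8, 38.3 and 36.5 FPKM in running libraries, against 32.7, 20.5 and 32.7 in CUS libraries. Running and CUS values did not overlap, but running replicate 1 exceeded the nearer CUS libraries by about 1 FPKM, and CUS replicate 2 was far below all others. The log2 difference was 0.36 (95% interval 0.02 to 0.71, limma adjusted p = 0.193), and without CUS replicate 2 it was 0.14 (adjusted p = 0.315). With equal library totals it was 0.46 (limma adjusted p = 0.115).

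The remaining precursors overlapped between running and CUS libraries. Pdyn, which encodes the dynorphins, had 12.7, 13.8 and 14.5 FPKM in running libraries, against 12.3, 8.95 and 14.6 in CUS libraries, a log2 difference of 0.21 (95% interval -0.11 to 0.52). Without CUS replicate 2 it was 0.02, and without CUS replicate 3 it was 0.36. Cck had 860, 781 and 914 FPKM in running libraries, against 804, 912 and 1142 in CUS libraries, a log2 difference of -0.15 (95% interval -0.41 to 0.11). Without CUS replicate 3, the library with the highest Cck, the difference was -0.01, without CUS replicate 1 it was -0.26 and without running replicate 2 it was -0.09. Npy averaged 189 ± 19.8 FPKM in running and 189 ± 29.5 in CUS libraries (SD, n = 3 each), with a 95% interval of the log2 difference from -0.29 to 0.30. Vip averaged 42.9 ± 4.86 FPKM in running and 42.5 ± 10.4 in CUS libraries, with an interval from -0.28 to 0.35. The median log2 difference of the 8 members was -0.07, beside -0.03 over all genes, with 4 members higher and 4 lower.

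**Figure D2:**
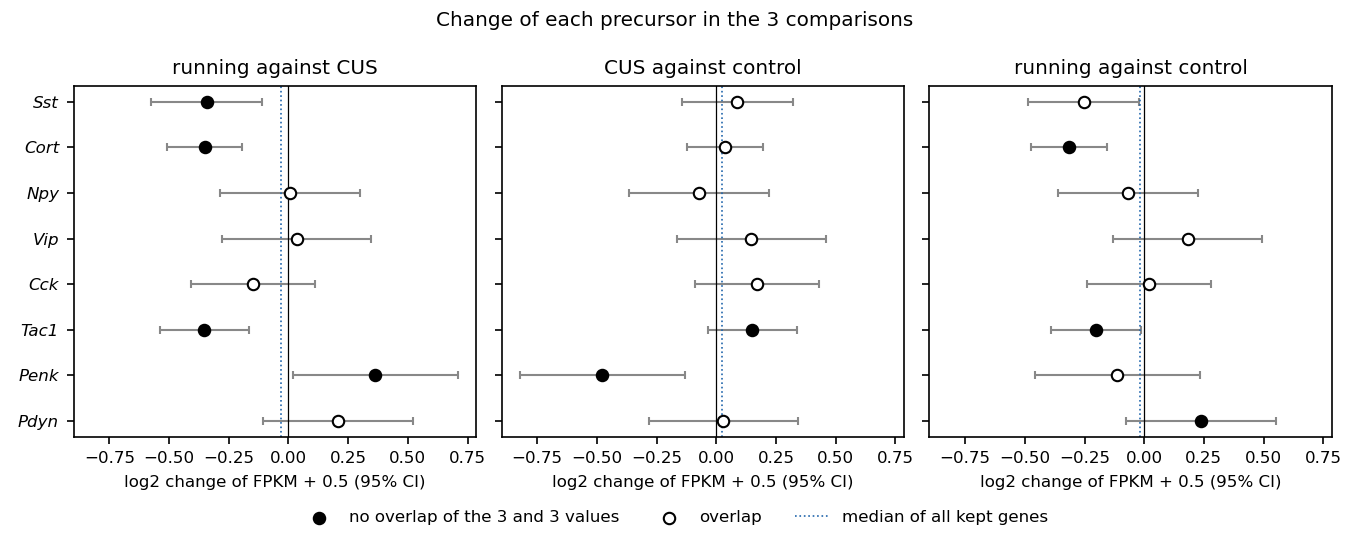
Log2 change of FPKM + 0.5 (horizontal axis, with 95% confidence intervals from limma) of each precursor in running against CUS, CUS against control and running against control; filled points mark groups whose 3 and 3 values do not overlap, and the dotted line is the median of all 14013 genes. Sst, Cort and Tac1 sit between -0.35 and -0.34 in running against CUS, and Penk sits at 0.36 there and at -0.48 in CUS against control.

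The members that were lower together in running than in CUS libraries were also looked at by promoter sequence, since a cyclic AMP response element is known from the somatostatin promoter. The 250 bases before the annotated start were searched for the palindrome TGACGTCA and for its 5-letter core TGACG on either strand (CGTCA on the other strand). The core lies inside the palindrome, so a palindrome counts under both. RefSeq promoters on GRCm38.p6 were at hand for 7 of the 8 members, Penk being the other. The palindrome was found in 1 member, Sst, and in 1.55% of 32851 promoter windows of the genome. The core was found in 5 members, Sst, Cort, Vip, Cck and Tac1, and in 17.8% of windows, and in neither Npy nor Pdyn.

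The 30 bases around the match nearest to the start are shown on the gene's own strand with each core in capitals. They lie at chr16:23890874-23890903 (minus strand) for Sst, chr4:149126765-149126794 (minus) for Cort and chr6:7555005-7555034 (plus) for Tac1. Those of Cck lie at chr9:121495725-121495754 (minus) and those of Vip at chr10:5639126-5639155 (plus).
Sst: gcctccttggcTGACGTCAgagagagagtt
Cort: gctccggcttgtgCGTCAccgcgtgagtgt
Tac1: ggctctacaggctCGTCAcgcctgagataa
Cck: tcctgctggactgCGTCAgcactgggtaaa
Vip: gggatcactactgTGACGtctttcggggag
The first letter of the match lies 45 bases before the RefSeq start in Sst, 18 in Cort, 43 in Tac1, 47 in Cck and 79 in Vip. For Sst that start is at 23890844, while the RefSeq gene record reaches upstream to 23891342 and GENCODE M21 places the start at 23890958. For Tac1 GENCODE M21 places it at 7554879. The core was present in the promoters of Sst, Cort and Tac1, and also in those of Cck and Vip, whose values overlapped between running and CUS libraries. A match is a description of these letters only.

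In CUS compared with control libraries, Penk was the member with the largest difference, and the other 7 precursors had 95% intervals of the log2 difference that spanned 0. Of the 8, 0 were called in limma, where 0.00714% of all genes were called. For 1 of 8 the unadjusted p was under 0.05, a share at the background of 14.7% of all genes. The 3 values per group did not overlap for 1 member that was lower, Penk, where 7.60% of genes were lower without overlap. They did not overlap for 1 member that was higher, Tac1, where 12.1% of genes were.

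Penk averaged 28.6 ± 7.07 FPKM in CUS and 39.3 ± 4.41 in control libraries (SD, n = 3 each), and the control values were 35.5, 44.1 and 38.3 FPKM. The log2 difference was -0.48 (95% interval -0.82 to -0.13, limma adjusted p = 0.267). Without CUS replicate 2 it was -0.26 (adjusted p = 0.150), so that library carried much of the size and the remaining values still did not overlap. Tac1 averaged 19.7 ± 1.76 FPKM in CUS and 17.7 ± 0.232 in control libraries, with control values of 17.6, 17.9 and 17.5 FPKM. The lowest CUS library and the highest control library differed by under 0.1 FPKM, and the log2 difference was 0.15 (95% interval -0.04 to 0.34, limma adjusted p = 0.401), and 0.09 without CUS replicate 1.

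Sst averaged 587 ± 57.0 FPKM in CUS and 554 ± 71.8 in control libraries (SD, n = 3 each). The control values were 599, 471 and 592 FPKM, so that control replicate 2 lay among the running libraries. The log2 difference was 0.09 (95% interval -0.14 to 0.32). Cort averaged 16.4 ± 0.433 FPKM in CUS and 16.1 ± 1.45 in control libraries, with control values of 17.2, 14.4 and 16.6, and again control replicate 2 was the lowest of its group. The interval of the Cort difference ran from -0.12 to 0.19. Without control replicate 2 the log2 differences were -0.02 for Sst and -0.04 for Cort.

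Cck averaged 953 ± 173 FPKM in CUS and 839 ± 30.3 in control libraries, a log2 difference of 0.17 (95% interval -0.09 to 0.43). It was 0.03 without CUS replicate 3 and 0.28 without CUS replicate 1. Vip averaged 42.5 ± 10.4 FPKM in CUS and 37.6 ± 2.15 in control libraries, a log2 difference of 0.15 (95% interval -0.17 to 0.46). It was -0.04 without CUS replicate 3 and 0.28 without CUS replicate 1. For Npy and Pdyn the log2 differences were -0.07 (95% interval -0.37 to 0.22) and 0.03 (95% interval -0.28 to 0.34). The median of the 8 members was 0.06, beside 0.02 over all genes, with 6 members higher and 2 lower.

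In running compared with control libraries, Cort and Tac1 were lower and Pdyn was higher without overlap of the values. Again 0 of 8 members were called in limma, where 3 genes were called in all (0.0214% of genes), and 3 members had an unadjusted p under 0.05, as did 11.6% of all genes. The 2 members that were lower without overlap stand beside 11.9% of all genes, and the 1 that was higher beside 10.5%. Cort averaged 12.8 ± 0.501 FPKM in running and 16.1 ± 1.45 in control libraries (SD, n = 3 each), a log2 difference of -0.31 (95% interval -0.47 to -0.16, limma adjusted p = 0.151). Tac1 averaged 15.4 ± 1.66 FPKM in running and 17.7 ± 0.232 in control libraries, a log2 difference of -0.20 (limma adjusted p = 0.396). Pdyn averaged 13.7 ± 0.933 FPKM in running and 11.5 ± 0.889 in control libraries, a log2 difference of 0.24 (95% interval -0.08 to 0.55, limma adjusted p = 0.551).

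Sst averaged 463 ± 29.0 FPKM in running and 554 ± 71.8 in control libraries, a log2 difference of -0.25 (95% interval -0.49 to -0.02, limma adjusted p = 0.395), and only control replicate 2 overlapped with the running range. Penk averaged 36.2 ± 2.25 FPKM in running and 39.3 ± 4.41 in control libraries, a log2 difference of -0.11 (95% interval -0.46 to 0.23). Leaving out 1 library gave -0.03 without control replicate 2, -0.18 without control replicate 1 and -0.07 without running replicate 1. The log2 differences of Vip, Cck and Npy were 0.18, 0.02 and -0.07, each with overlapping values, and that of Vip was 0.09 without running replicate 3. Each pair of comparisons shares a group of libraries, the CUS libraries entering the first and second with opposite sign, so the 3 sets of differences are not independent of each other.

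Ratios within a library set the precursors against each other. The ratio of Sst to Cort FPKM averaged 36.3 ± 3.49 in running, 35.7 ± 2.82 in CUS and 34.4 ± 1.58 in control libraries (SD, n = 3 each), and the ranges overlapped. The ratio of Vip to Sst FPKM was 0.0791, 0.0910 and 0.110 in running libraries, between 0.0631 and 0.0831 in CUS libraries and between 0.0626 and 0.0755 in control libraries. Running and control values of that ratio did not overlap, and running replicate 1 lay below CUS replicate 3. The ratio of Cck to Sst, with the same denominator, was 1.73 to 2.07 in running, 1.47 to 1.75 in CUS and 1.44 to 1.71 in control libraries. It too overlapped between running and CUS but not between running and control libraries. Ratios of Sst to Npy overlapped between all groups. How often ratios of other genes separate the groups was not measured. The ratio of Penk to Pdyn FPKM averaged 2.65 ± 0.130 in running, 2.39 ± 0.229 in CUS and 3.42 ± 0.376 in control libraries. All running and CUS ratios were below all control ratios, and running and CUS ratios overlapped.

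Single libraries carried several of the extremes. CUS replicate 3 held the highest value of Cck, Pdyn, Sst and Vip, that is of 4 members, and CUS replicate 2 held the lowest value of Npy, Pdyn and Penk. The CUS group had the widest relative spread of Vip, Penk, Pdyn, Cck and Npy, with coefficients of variation of 24.5%, 24.7%, 23.9%, 18.1% and 15.6%. In running libraries those of the same genes were 11.3%, 6.22%, 6.83%, 7.85% and 10.5%, and in control libraries 5.71%, 11.2%, 7.72%, 3.62% and 15.0%. For Cort the CUS group had the narrowest spread, at 2.63%, against 3.92% in running and 9.02% in control libraries.

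**Figure D3:**
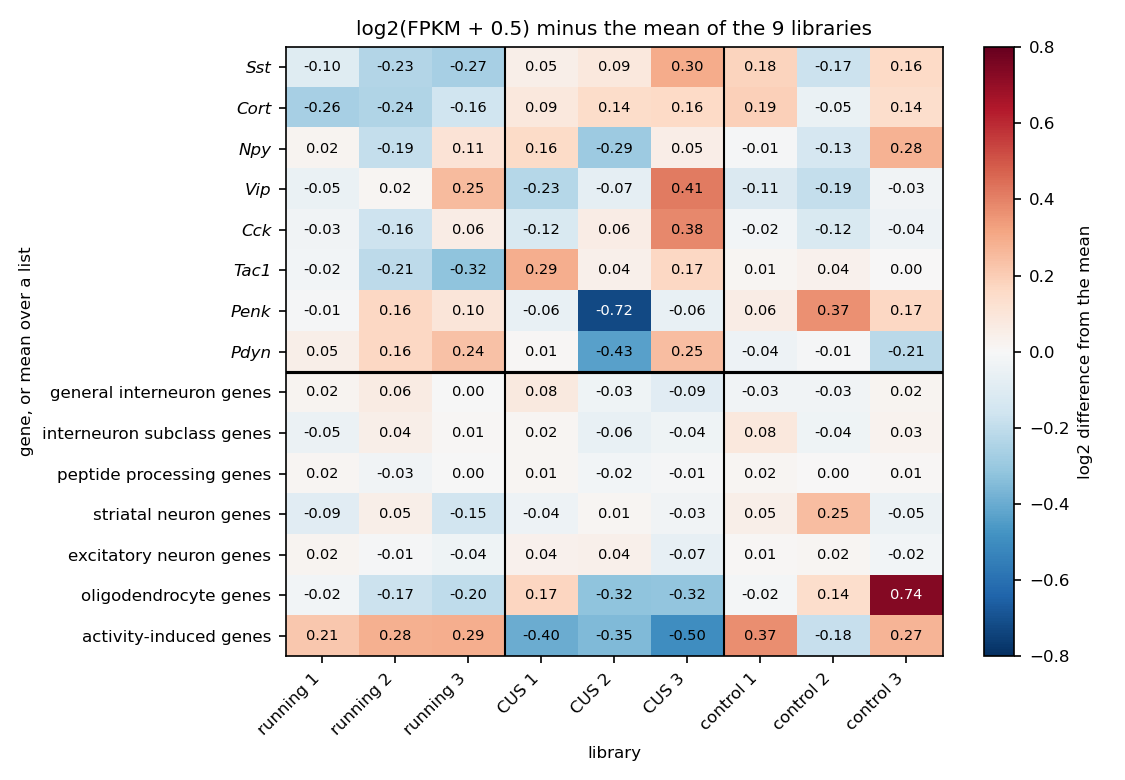
Log2(FPKM + 0.5) minus the mean of the 9 libraries for each precursor (rows above the line) and averaged over 7 gene lists (rows below it), by library; red is higher and blue is lower than the mean. CUS replicate 2 is at -0.72 for Penk and CUS replicate 3 at 0.41 for Vip and 0.38 for Cck, while the general interneuron genes stay between -0.09 and 0.08.

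Other genes of inhibitory neurons gave the background for these precursors. Of 22 general interneuron genes, all 22 passed the filter and 0 were called in limma in any of the 3 comparisons. In the order running against CUS, CUS against control and running against control, 2, 4 and 0 had an unadjusted p under 0.05, beside 23.5%, 14.7% and 11.6% of all genes. There were 14 higher and 8 lower in running than in CUS libraries (median log2 difference 0.05, beside -0.03 over all genes). For 3 of them the running values lay above the CUS values without overlap, and for 0 below, beside 8.99% and 15.9% of all genes. Gad2, a GABA-synthesising enzyme, had 29.3 ± 0.972 FPKM in running and 25.7 ± 1.01 in CUS libraries (SD, n = 3 each), a log2 difference of 0.19 (limma adjusted p = 0.0963). In CUS against control 10 of the 22 were higher and 12 lower (median -0.03), and in running against control 13 were higher and 9 lower (median 0.04). With the mean of these 22 genes taken as the scale, an alternative chosen after seeing the data, the running minus CUS differences were -0.38 for Sst, -0.39 for Cort and -0.39 for Tac1. That scale shifts all genes alike, and their median was then -0.08. With a length and GC trend removed, also chosen after seeing the data, the differences were -0.25 for Sst, -0.26 for Cort and -0.26 for Tac1.

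Among 24 genes that mark interneuron subclasses, 22 passed the filter and 0 were called in limma, with 2, 7 and 0 at an unadjusted p under 0.05 in the same order, beside those same shares of all genes. In running against CUS 15 were higher and 7 lower (median 0.06), in CUS against control 8 and 14 (median -0.05), and in running against control 10 and 12 (median -0.00117). Crhbp and Elfn1, found in somatostatin cells, had 15.6 ± 1.27 and 11.9 ± 0.785 FPKM in running, against 17.5 ± 3.13 and 10.8 ± 1.13 in CUS libraries. Both overlapped between the groups, with log2 differences of -0.15 and 0.15. Cpne2, with the smallest p of the list, was higher in each CUS than in each control library, with a log2 difference of 0.28 (limma adjusted p = 0.255). So were Htr3a and Cnr1, receptors of VIP and cholecystokinin interneurons, with log2 differences of 0.33 and 0.22 (limma adjusted p = 0.281 and 0.300). Kcnc1 and Kit were lower in each CUS than in each control library, with log2 differences of -0.28 and -0.17. So was Lamp5, at 87.7 ± 10.6 FPKM in CUS and 102 ± 8.64 in control libraries. In all, 3 subclass genes were higher and 3 lower without overlap in CUS against control, beside 12.1% and 7.60% of all genes. Pvalb, which marks fast-spiking cells, had 27.4 to 35.7 FPKM in CUS libraries and 34.0 to 75.8 in control libraries, with the highest value in control replicate 1.

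Striatal neurons express Penk, Tac1 and Pdyn strongly, so genes of these neurons were read beside them. Of 22 such genes 17 passed the filter, and Drd3, Isl1, Six3, Sh3rf2 and Ido1 did not, with means between 0.00444 and 0.189 FPKM. The summed FPKM of the list was 241 to 261 in running, 247 to 252 in CUS and 235 to 276 in control libraries. In running against CUS 6 were higher and 11 lower (median -0.05), in CUS against control 6 and 11 (median -0.03), and in running against control 6 and 11 (median -0.14). In limma 0 of them were called, and 2, 3 and 4 had an unadjusted p under 0.05 in that order, beside 23.5%, 14.7% and 11.6% of all genes. In CUS against control 3 were lower without overlap, Pde10a, Rgs9 and Syndig1l, and 0 higher, beside 7.60% and 12.1% of all genes. Pde10a had a log2 difference of -0.37 there (limma adjusted p = 0.260). In running against control 4 were lower and 0 higher without overlap, beside 11.9% and 10.5%, and in running against CUS 1 and 1, beside 15.9% and 8.99%. Control replicate 2, which had the highest Penk, also had the highest Adora2a, Gpr6 and Syndig1l, at 1.90, 0.72 and 2.28 FPKM. Of the 17 genes, 17 were above their own mean of the 9 libraries there. Tac1 and Pdyn, at 17.9 and 12.2 FPKM in control replicate 2, ranked 4 and 6 from the highest of the 9 libraries. In CUS replicate 2, which had the lowest Penk, 7 of the 17 striatal genes were above and 10 below. Pdyn was also at its lowest in CUS replicate 2, at 8.95 FPKM, and Tac1 ranked 3. Drd2, at 1.36 FPKM, was at its highest there, while Gpr6 at 0.37 and Syndig1l at 0.91 were below their means. Syndig1l averaged 0.817 ± 0.163 FPKM in running, 0.963 ± 0.157 in CUS and 1.69 ± 0.511 in control libraries. Without control replicate 2 the log2 difference of Penk in CUS against control was -0.39 (limma adjusted p = 0.466). The part of striatal tissue in the Penk difference was not tested.

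**Figure D4:**
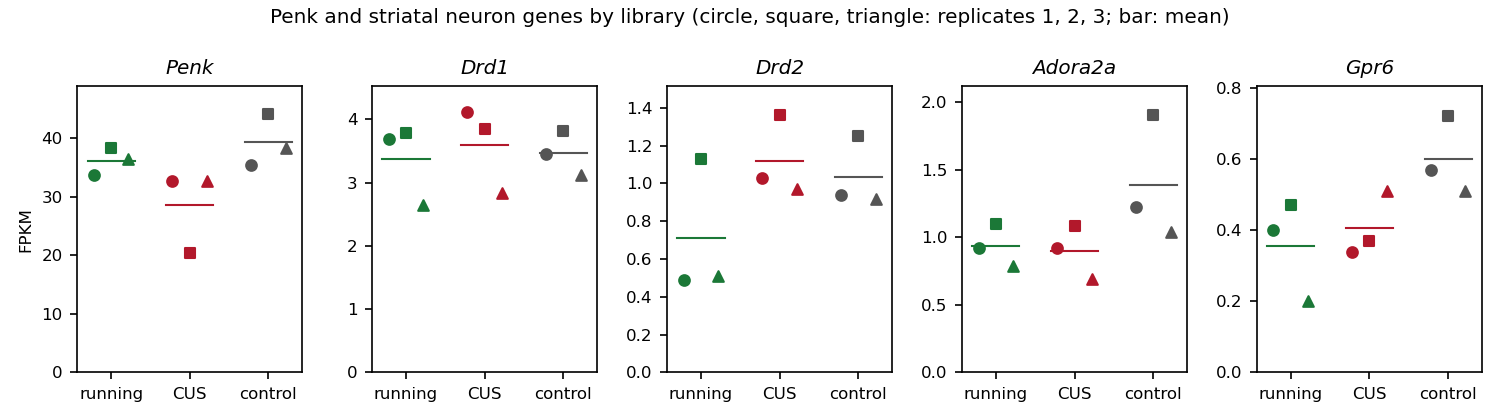
FPKM of Penk and of 4 striatal neuron genes (vertical axes, from 0) in running, CUS and control libraries; marker shapes are replicates and bars are group means. Control replicate 2 (square) is the highest library for Penk, Adora2a and Gpr6, and CUS replicate 2 (square) is the lowest for Penk, the highest for Drd2 and below the mean of the 9 libraries for Gpr6.

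Receptors of these peptides were measured in the same libraries. The list also holds Oprl1 and Adcyap1r1, receptors of the related peptides nociceptin and PACAP, and they enter the counts and medians below. Of 21 receptor genes 13 passed the filter, and 0 were called in limma in any comparison, with 6, 2 and 4 at an unadjusted p under 0.05 in running against CUS, CUS against control and running against control, beside 23.5%, 14.7% and 11.6% of all genes. The most abundant were Cckbr, the brain receptor of cholecystokinin, at a mean of 44.1 FPKM over the 9 libraries and Adcyap1r1, a receptor of the VIP-related peptide PACAP, at 33.1. Among somatostatin receptors Sstr2, Sstr3 and Sstr1 had means of 10.2, 8.44 and 8.32 FPKM, and Sstr5 had 0.0844. The mu opioid receptor Oprm1 had 0.157 FPKM and the neurokinin receptors Tacr1 and Tacr3 had 0.419 and 0.0889, all below the filter.

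In running against CUS libraries 7 receptors were higher and 6 lower (median 0.01), and 3 in each direction did not overlap between the groups, beside 8.99% of all genes higher and 15.9% lower. Npy1r, a receptor of neuropeptide Y, had 12.7 ± 0.445 FPKM in running and 14.7 ± 0.274 in CUS libraries (SD, n = 3 each), a log2 difference of -0.21. Cckbr had 40.7 ± 2.07 FPKM in running and 47.3 ± 3.01 in CUS libraries, a log2 difference of -0.21 (limma adjusted p = 0.118). Oprl1, the nociceptin receptor, had 14.7 ± 1.37 FPKM in running and 17.4 ± 0.905 in CUS libraries, a log2 difference of -0.24 (limma adjusted p = 0.121). Higher without overlap were Vipr1, Adcyap1r1 and Oprd1. Oprd1, the delta opioid receptor on which enkephalins act, had 5.28, 6.48 and 5.93 FPKM in running libraries, against 3.90, 4.92 and 2.33 in CUS libraries. Its log2 difference was 0.65 (SE 0.209, limma adjusted p = 0.115), with the lowest value in CUS replicate 3.

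In CUS against control 7 receptors were higher and 6 lower (median 0.03). Oprl1 was the receptor with the smallest p, at 17.4 ± 0.905 FPKM in CUS and 14.1 ± 0.834 in control libraries (limma adjusted p = 0.253), and Sstr2 had a log2 difference of 0.26 with overlapping values. In running against control 9 were higher and 4 lower (median 0.06). Vipr1 had 8.80 ± 0.376 FPKM in running and 7.30 ± 0.364 in control libraries, higher by 0.25 on the log2 scale (limma adjusted p = 0.265). Adcyap1r1 had a log2 difference of 0.20 and Npy1r one of -0.23.

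**Figure D5:**
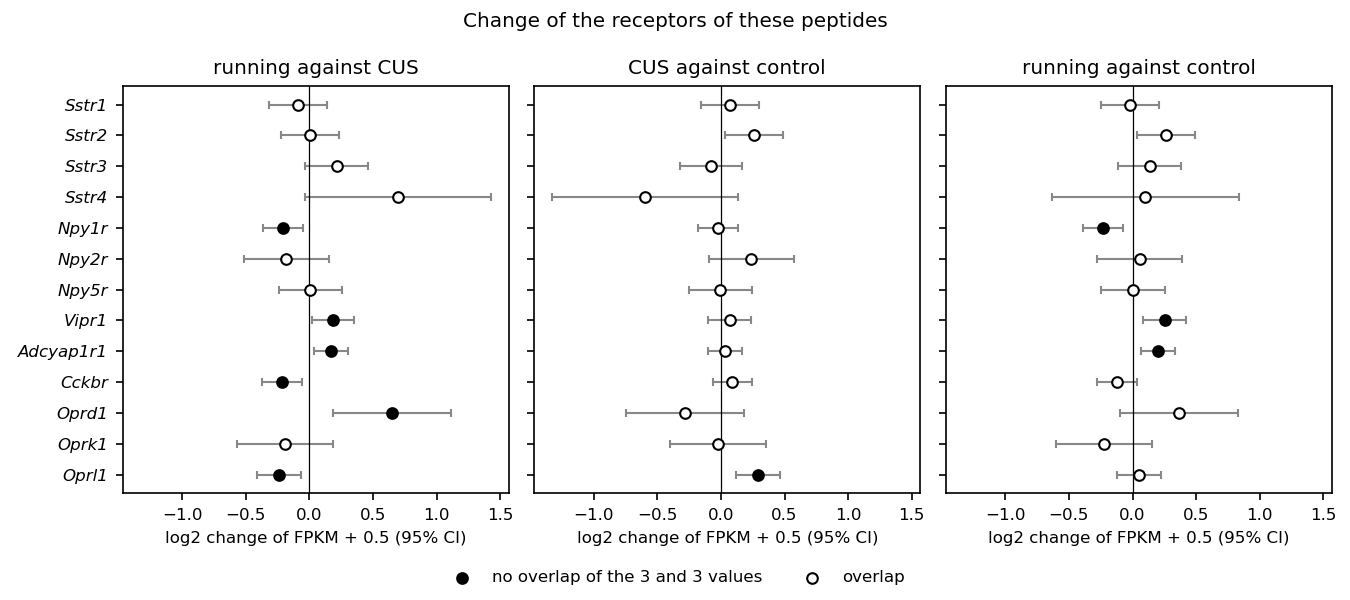
Log2 change of FPKM + 0.5 (horizontal axis, with 95% confidence intervals from limma) of the 13 receptor genes that passed the filter, in the 3 comparisons; filled points mark groups whose 3 and 3 values do not overlap. In running against CUS, Npy1r, Cckbr and Oprl1 lie between -0.24 and -0.21, and Oprd1 lies at 0.65.

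The enzymes and granule proteins that turn precursors into peptides showed small differences in both directions. All 18 listed genes passed the filter and 0 were called in limma, with 6, 2 and 2 at an unadjusted p under 0.05 in running against CUS, CUS against control and running against control, beside 23.5%, 14.7% and 11.6% of all genes. There were 10 higher and 8 lower in running than in CUS libraries (median 0.04), 6 higher and 12 lower in CUS than in control libraries (median -0.04), and 11 higher and 7 lower in running than in control libraries (median 0.02). Cpe, the carboxypeptidase that trims peptide ends, was the most abundant at a mean of 1020 FPKM. Pcsk1n, an inhibitor of the convertase Pcsk1, had 337 ± 17.1 FPKM in running and 409 ± 28.0 in CUS libraries (SD, n = 3 each), a log2 difference of -0.28 (limma adjusted p = 0.0845). Chgb, a granin of dense-core vesicles, had 175 ± 5.32 FPKM in running and 146 ± 12.7 in CUS libraries, a log2 difference of 0.26 (limma adjusted p = 0.0952). Qpct, which cyclises the first residue of some peptides, had a log2 difference of -0.37 (limma adjusted p = 0.0861). All 3 had values that did not overlap between running and CUS libraries. Over the 18 genes, 3 were higher and 3 lower without overlap in that comparison, beside 8.99% and 15.9% of all genes. Pcsk1 and Pcsk2, the convertases that cut these precursors, had log2 differences of 0.21 and 0.11 in running against CUS with overlapping values.

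Of 11 peptidases that break peptides down, all 11 passed the filter and 0 were called in limma, with 3, 0 and 0 at an unadjusted p under 0.05 (beside those same shares) and median log2 differences of 0.02, -0.04 and 0.00 in running against CUS, CUS against control and running against control. Ece2, an endothelin-converting enzyme, had 3.81 ± 0.00577 FPKM in running and 4.81 ± 0.528 in CUS libraries, a log2 difference of -0.30 (limma adjusted p = 0.0978). Of 23 other peptide and secreted factor genes 18 passed the filter and 0 were called in limma, with 3, 1 and 3 at an unadjusted p under 0.05 in the same order beside those shares, and with 7 higher and 11 lower in running than in CUS libraries (median -0.03). In both other comparisons 4 of the 18 were higher and 14 lower, with medians of -0.18 in CUS against control and -0.13 in running against control. Tac2, the neurokinin B precursor and a relative of Tac1, averaged 20.3 ± 1.34 FPKM in running, 20.0 ± 5.02 in CUS and 16.9 ± 1.32 in control libraries. The smallest p in running against CUS belonged to Grp, the gastrin-releasing peptide precursor, at 14.4 ± 2.10 FPKM in running and 26.2 ± 3.08 in CUS libraries, a log2 difference of -0.84 (limma adjusted p = 0.0574). Next was Nppc, the C-type natriuretic peptide precursor, with -0.61 (limma adjusted p = 0.0776), and both were lower in every running library. Crh, which VIP interneurons also make, had 4.86 ± 0.753 FPKM in running and 3.89 ± 1.00 in CUS libraries, with overlapping values.

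Genes of the response to neuronal activity were read beside the precursors. The list holds genes induced by activity, Fos among them, and also regulators of that response such as Creb1. Of the 16 genes listed, 16 were higher and 0 lower in running than in CUS libraries (median 0.72). In limma 0 were called and 10 had an unadjusted p under 0.05, beside 23.5% of all genes. In CUS against control 2 were higher and 14 lower (median -0.55), with 0 called and 12 at an unadjusted p under 0.05, beside 14.7%. In running against control 12 were higher and 4 lower (median 0.16), with 0 called and 2 at an unadjusted p under 0.05, beside 11.6%. Of these 2, Npas4 was lower in running, with a log2 difference of -0.76 (limma adjusted p = 0.404). Creb1 was higher, with 0.19 (limma adjusted p = 0.408), and neither overlapped between the groups. The mean centred log2 value of the 16 genes was 0.21 to 0.29 in running, -0.50 to -0.35 in CUS and -0.18 to 0.37 in control libraries. Control libraries thus spanned the running range. The part of the 16 genes in the precursor differences was not tested. Oligodendrocyte genes, highest in control replicate 3 at 0.74 on the same scale, had median log2 differences of 0.07 in running against CUS, -0.40 in CUS against control and -0.44 in running against control. In running against control 12 of 12 were lower, 4 of them without overlap, beside 11.9% of all genes. In CUS against control 11 of 12 were lower, 2 of them without overlap, beside 7.60%. In limma 0 were called in either, with 4 and 6 at an unadjusted p under 0.05, beside 11.6% and 14.7%. Cort and Tac1 had log2 differences of -0.31 and -0.20 in running against control, and of 0.04 and 0.15 in CUS against control. The part of oligodendrocyte genes in the precursor differences was not tested. Of the 19 excitatory neuron genes, which share Cck with interneurons, 9 were higher and 10 lower in running than in CUS libraries (median -0.01).

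The genes whose centred log2 values lay nearest to each precursor over the 9 libraries were found among 12305 genes with a mean of at least 1 FPKM. For Sst they were Wdr54, Alkbh7 and Gstp1, with mean absolute differences of 0.0494, 0.0495 and 0.0516, where Sst itself deviated from its mean by 0.170 on average. For Cort they were Cd68, Zfp467 and Setd6, at 0.0391, 0.0421 and 0.0441, and for Tac1 they were Lmo1, Rab4a and Actg1, at 0.0279, 0.0437 and 0.0448. For Cck they were Msantd3, Clns1a and Zup1, at 0.0324, 0.0415 and 0.0430. The nearest genes of Penk, led by Slc41a3 at 0.105, were less close. The 9 values are shared with the group differences above and the libraries share 1 preparation protocol, so such nearness is a description only.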

How the data were processed

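RNA of the medial prefrontal cortex was measured in 9 libraries. The authors deposited FPKM values with 2 decimals, made, per the submitters' processing notes, on build mm10 with DESeq2 1.4.5, RSEM 1.2.12 and Bowtie2 2.2.5 among the tools. The sources used here name neither their roles nor the annotation. Depth is unknown, so no counting interval is given. From there, log2(FPKM + 0.5) of genes that reached 0.5 FPKM in 3 or more libraries was fitted with limma 3.58.1 (R 4.3.3), with 1 model of all 9 libraries, an intensity trend. P-values were adjusted by Benjamini-Hochberg over all 14013 genes, and genes called at an adjusted p under 0.05. The 30264 rows without a gene identifier were at 0 throughout. An exact test of 3 against 3 libraries cannot give a p under 0.1. The code was tested on simulated data. Members and gene lists were chosen with earlier results of these data known. Named genes are all 8 members and, per list, those with the highest mean or the smallest p, from which the text gives those nearest to the peptides, together with receptors and enzymes by role. Crhbp, Elfn1, Kit, Crh, Drd2 and Gpr6 were chosen after their values were seen. Further genes that the rule names are not reported here. Alternatives were the pseudocount, filter, scaling, variance model, library weights and leaving out each library, with 2 added after seeing the data: removal of a length and GC trend (98.2% of genes annotated) and scaling to interneuron genes.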

Additional observations from a re-analysis of the deposited data

How the results depend on the processing

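No precursor was called in limma under any of the 21 alternatives to the reported settings, except Cort and Tac1 in running against CUS without CUS replicate 2 and with quality weights (2 members called in each). Sst, Cort and Tac1 stayed lower and Penk stayed higher in running than in CUS libraries under all 21. Directions that turned belonged to small differences. Quantile normalization gave 0.00323 for Cck in running against CUS, and equal totals gave -0.0272 for Cort and -0.0345 for Pdyn in CUS against control. Quality weights gave 0.0443 for Cck and -0.0537 for Npy in running against CUS, and 0.0520 for Npy and -0.0396 for Vip in CUS against control. The length and GC trend removed gave -0.0234 for Pdyn in CUS against control. Scaling to interneuron genes gave -0.0220 for Cck in running against control, and -0.0348 for Npy and -0.00789 for Vip in running against CUS. Leaving out 1 library at a time gave log2 ranges in CUS against control of -0.0238 to 0.149 for Sst, -0.0360 to 0.0865 for Cort, -0.166 to 0.0577 for Npy, -0.0411 to 0.281 for Vip and -0.124 to 0.216 for Pdyn. In running against CUS it gave -0.124 to 0.0994 for Npy and -0.0993 to 0.223 for Vip, and in running against control -0.0334 to 0.0799 for Cck and -0.156 to 0.0504 for Npy. The cause of these turns was not tested.

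The count of genes called depended on the settings. In running against CUS, with 1 gene called, it was 0 without a filter, 3 with equal totals, 2 with quantile normalization, 2 with equal medians, 2178 with quality weights, 15 with only the 6 libraries compared, 3 with the length and GC trend removed and 4 scaled to interneuron genes. In CUS against control, with 1 called, it was 0 with a mean of at least 1 FPKM, 8 with quality weights and 0 with the length and GC trend removed. In running against control, with 3 called, it was 1 without a filter, 147 with quality weights, 7 without the intensity trend, 24 with only the 6 libraries and 8 with the length and GC trend removed. Leaving out 1 library gave 0 to 1518 in running against CUS, 1 to 6 in CUS against control and 1 to 10 in running against control, and 0 to 2 members called in running against CUS. No paired analysis was possible because the replicate numbers follow the order of listing and pair no libraries.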
